A study of Mus musculus with 194 samples.

Results

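The genes described here are 10 tubulin isotypes, the 6 beta-tubulins Tubb6, Tubb4b, Tubb5, Tubb2a, Tubb2b and Tubb3 and the 4 alpha-tubulins Tuba1a, Tuba1b, Tuba1c and Tuba4a, taken by symbol from a table of 23420 gene names. They were followed through 97 CD8+ T-cells in 34 lineages and 81 L1210 cells in 26 lineages, which are the cells not marked as doublets that had 1000 or more genes above 0 TPM (a transcript level per length that is scaled to the same total in every library). Tubb6 was selected on its small differences between related CD8+ T-cells, and Tubb4b, Tubb5 and Tuba1b on their change with time since division in CD8+ T-cells, both measured in these same libraries. Those patterns are therefore given as descriptions without a test, and so is the likeness of Tubb4b among related L1210 cells, which was also known from these libraries.

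The CD8+ T-cells were isolated from splenocytes of C57BL/6J mice, and were activated for 30 h with plate-bound anti-CD3 (5 μg/mL) and anti-CD28 (2 μg/mL) before culture in the device with 100 U/mL IL2. The L1210 cells are a mouse lymphocytic leukemia line (strain label DBA subline 212) that was grown without stimulation in RPMI with serum. Each lineage descended from 1 founding cell held in its own lane of a hydrodynamic trap array, and each cell released after culture over generations on-chip gave 1 Smart-Seq2 library, a method that copies polyadenylated RNA of a single cell into cDNA. The labels name no mouse or culture, so that p-values for cell type and for time since division measure the spread between lineages. Those for lineage in L1210 cells set lineages against the spread between cells of a lineage. Cell type, strain and medium cannot be told apart. Lineage, mouse of origin and device run cannot be told apart either.

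Microtubules are hollow polymers of alpha- and beta-tubulin heterodimers, which form the mitotic spindle and the tracks for intracellular transport. Each subunit is encoded by several genes, the isotypes, whose proteins are nearly identical in the core and differ most in the acidic tail at the carboxyl end. Tubb5, Tubb4b and Tuba1b are expressed in many dividing cells, Tubb3 and Tubb2b are best known from neurons, and Tuba4a is abundant in platelets. In proliferating lymphocytes tubulin is required for the spindle and, in CD8+ T-cells, for the delivery of cytotoxic granules.

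The labelled cell types were checked against markers. All 8 T-cell markers (Cd8a, Cd8b1, Cd3d, Cd3e, Cd3g, Cd2, Lck and Thy1) had a median above 0 TPM in the CD8+ T-cells, where their summed level ranged from 1080 to 6829 TPM, against 0 to 130.3 TPM in the L1210 cells, in which Cd3e and Cd3g were at 0 in every cell. Of the 7 B-lineage markers, 6 had a median above 0 TPM in the L1210 cells. The 7 summed to 389.7 to 4372 TPM in the L1210 cells and to 0 to 283 TPM in the CD8+ T-cells, in which Vpreb1, Igll1, Ebf1 and Pax5 were at 0 in every cell. Of 5 myeloid markers, 1 had a median above 0 TPM in each cell type, and their sums had medians of 134 TPM in CD8+ T-cells and 253 TPM in L1210 cells. Cells differed in the number of genes detected, from 2639 to 10905 with a median of 6862 in the CD8+ T-cells and from 1610 to 10454 with a median of 8402 in the L1210 cells. One L1210 cell, L1210_15, had the lowest number, 1610 genes. The cells L1210_8 and L1210_84, which make up a lineage of their own, had 2718 and 4951. TPM sum to the same total in every library and keep no depth, so that no counting interval can be given.

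Among the members, Tubb6 had the largest difference between the cell types in ln(TPM + 1). Tubb2b, described below, had the lower adjusted p-value, and more of its L1210 lineages lay above all CD8+ lineages in TPM (20 against 3 of 26). Tubb6 was above 0 TPM in 79 of 81 L1210 cells and in 44 of 97 CD8+ T-cells, with cell medians of 206 and 0 TPM. Lineage means of Tubb6 ranged from 50.4 to 616 TPM with a median of 216 TPM in L1210 cells, and from 0 to 270 TPM with a median of 7.84 TPM in CD8+ T-cells. All 26 L1210 lineages lay above the CD8+ median, and 31 of 34 CD8+ lineages lay below every L1210 lineage in TPM, or 22 of 34 when cells were averaged as ln(TPM + 1). The difference in lineage means was -3.51 ± 0.33 (SE) in ln(TPM + 1), a 33.6-fold higher level in L1210 cells on that scale (limma, adjusted p = 4.4e-15, Benjamini-Hochberg over 11371 genes). In TPM, the medians of lineage means differed 27.5-fold, and the means over cells were 221 TPM in L1210 cells and 29.5 TPM in CD8+ T-cells. Only 4 CD8+ T-cells exceeded the lower quartile of the L1210 cells. The gene (ENSMUSG00000001473.7) occupies positions 67390717 to 67402749 of chromosome 18 (plus strand) in GRCm38, the assembly also called mm10.

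The other beta-tubulins separated into isotypes that were higher in L1210 cells and isotypes that were higher in CD8+ T-cells. Tubb2b (chromosome 13, 34126748 to 34130466) was above 0 TPM in 68 of 81 L1210 cells and in 11 of 97 CD8+ T-cells, with a fitted difference of -2.78 ± 0.22 in ln(TPM + 1) (adjusted p = 4.5e-18). Its L1210 lineage means ranged from 0 to 186 TPM with a median of 34.7, while those of the CD8+ T-cells ran from 0 to 18.9 with a median of 0, and 20 of the 26 L1210 lineages lay above all CD8+ lineages in TPM. Its neighbour Tubb2a (chromosome 13, 34074274 to 34078007) was detected in 76 L1210 cells and 70 CD8+ T-cells, and was lower in CD8+ T-cells (difference -0.93 ± 0.31, adjusted p = 0.0072). Lineage means of Tubb2a overlapped widely, from 17.9 to 298 TPM in L1210 cells and from 0 to 196 TPM in CD8+ T-cells, and the call was lost with the number of detected genes as a covariate (adjusted p = 0.13).

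Tubb5 and Tubb4b, the most abundant beta-tubulins of both cell types, were higher in CD8+ T-cells. Tubb5 (chromosome 17, 35833921 to 35838306) was above 0 TPM in all 178 cells, with lineage means of 180 to 2230 TPM (median 1433) in CD8+ T-cells and 411 to 1393 TPM (median 982) in L1210 cells. The fitted difference was 0.35 ± 0.11 (1.41-fold, adjusted p = 0.0054), and 20 of 34 CD8+ lineages lay above every L1210 lineage in TPM. Tubb4b (chromosome 2, 25222160 to 25224702) had lineage means of 290 to 1934 TPM (median 1040) in CD8+ T-cells and of 125 to 1377 TPM (median 807) in L1210 cells, a difference of 0.38 ± 0.14 (1.46-fold, adjusted p = 0.013) with 8 CD8+ lineages above all L1210 lineages in TPM. Tubb3 was rare, with values above 0 TPM in 12 of 97 CD8+ T-cells but only 2 of 81 L1210 cells. It passed the gene filter only through the CD8+ T-cells, where it is higher, so that no test is given.

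**Figure D1:**
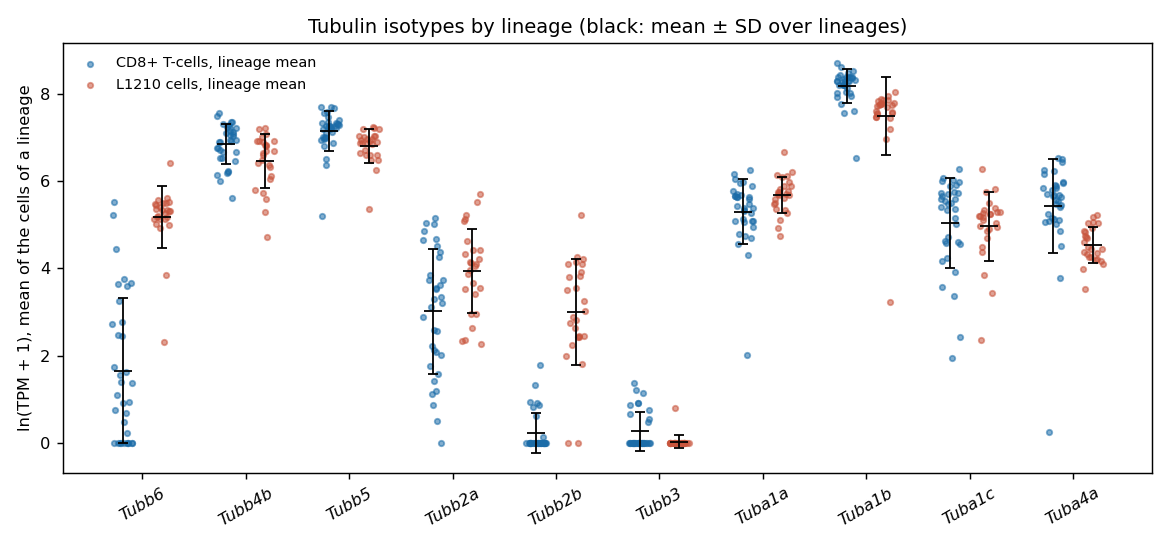
Lineage means of the 10 tubulin isotypes in ln(TPM + 1) (vertical axis) in CD8+ T-cells (34 lineages, blue) and L1210 cells (26 lineages, red), with the mean and SD over lineages in black. Tubb6 and Tubb2b stand lower in CD8+ T-cells, with 22 of 34 Tubb6 lineages below every L1210 lineage on this scale, while Tuba1b and Tuba4a stand higher.

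Among the alpha-tubulins, Tuba1b and Tuba4a were higher in CD8+ T-cells and Tuba1a was higher in L1210 cells. Tuba1b (chromosome 15, 98931425 to 98934565), the major alpha-tubulin, had lineage means of 683 to 6183 TPM (median 4027) in CD8+ T-cells and 318 to 3091 TPM (median 2307) in L1210 cells, and 28 of 34 CD8+ lineages lay above every L1210 lineage in TPM (difference 0.68 ± 0.16, 1.98-fold, adjusted p = 0.00017). Tuba4a (chromosome 1, 75214228 to 75219865) had medians of lineage means of 301 and 99.8 TPM, with 26 of 34 CD8+ lineages above every L1210 lineage in TPM (difference 0.88 ± 0.22, 2.42-fold, adjusted p = 0.00031). Tuba1a (chromosome 15, 98949837 to 98953703) was lower in CD8+ T-cells (difference -0.38 ± 0.16, adjusted p = 0.034), a call lost with a pseudocount of 0.1 TPM (0.052), with no gene filter (0.057) and with detected genes as a covariate (0.37). Tuba1c had a difference of 0.08 ± 0.23 with an adjusted p of 0.78, and with detected genes as a covariate the difference was 0.58 (adjusted p = 0.021). Leaving out Tubb3, 8 of 9 members passed the test, 4 of them higher in CD8+ T-cells and 4 higher in L1210 cells. Of all 11371 genes tested 63.6% passed, 13.5% higher in CD8+ T-cells and 50.1% higher in L1210 cells. The median difference was 0.08 over these 9 members and -0.41 over all genes.

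Several of these isotypes share sequence, so that short reads cannot always be assigned to a single gene. Of all 30-base words of a transcript, those also found in another annotated gene were 86.2% for Tuba1b, 78.7% for Tuba1a, 64.1% for Tuba1c, 56.9% for Tubb2a and 46.3% for Tubb2b. They were 71.3% for Tubb4b, most of them in the pseudogene Tubb4b-ps1, and 52.2% for Tuba4a, most of them in Stk16, a gene that overlaps it. In contrast, the shares were 4.57% for Tubb6, 4.92% for Tubb5 and 3.70% for Tubb3. The coding sequences of Tubb2a and Tubb2b differed at 47 of 1338 bases, and those of Tuba1a and Tuba1b at 23 of 1356 bases. The last 75 coding bases of Tubb2a and Tubb2b, within exon 4 on the minus strand, are shown because they illustrate how long a stretch the genes share, with differing bases in capitals (GRCm38, GENCODE annotation):
Tubb2a, chr13:34074468-34074542: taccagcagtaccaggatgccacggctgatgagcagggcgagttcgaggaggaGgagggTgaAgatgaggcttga
Tubb2b, chr13:34127471-34127545: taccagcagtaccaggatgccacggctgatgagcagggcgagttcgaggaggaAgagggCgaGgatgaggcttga
The pair differed at 3 bases of this stretch, in 3 codons that all encode the same residue in both genes. The division of reads among Tuba1a, Tuba1b and Tuba1c, and between Tubb2a and Tubb2b, is uncertain for this reason, whereas Tubb6, Tubb5 and Tubb3 rest mostly on their own sequence. Stk16 itself had cell medians of 27.3 TPM in CD8+ T-cells and 23.97 TPM in L1210 cells.

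As TPM are per length, the isotypes can be compared within a cell, each as a percentage of the summed TPM of the beta or of the alpha members. Tubb5 and Tubb4b together made up most beta-tubulin transcripts in both cell types, at 55.1% ± 10.5 and 41.3% ± 9.0 (SD, n = 34 lineages) in CD8+ T-cells and 47.6% ± 8.1 and 35.8% ± 8.2 (n = 26) in L1210 cells. Tubb6 accounted for 10.4% ± 2.9 in L1210 cells, ranging from 4.35 to 16.98%, and for 1.08% ± 2.21 in CD8+ T-cells, ranging from 0 to 10.1%. Tubb2a came to 4.27% ± 3.76 and 2.41% ± 2.34, and Tubb2b to 1.88% ± 1.30 and 0.0535% ± 0.151. The alpha members were dominated by Tuba1b, at 81.98% ± 3.19 in CD8+ T-cells. In L1210 cells it made up 75.4% ± 10.9. The lowest share, 27.8%, was in the lineage of L1210_8, whose cells had 2718 and 4951 detected genes, and the next lowest was 66.2%. Tuba4a contributed 6.67% ± 2.65 and 4.24% ± 2.13, and Tuba1a 6.15% ± 3.61 and 13.2% ± 7.8. The lineage of L1210_8 had the highest L1210 shares of both, 12.3% and 46.1%.

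The order of isotypes was the same in both cell types at the top and different below. Tubb5 exceeded Tubb4b in 26 of 34 CD8+ lineages and in 21 of 26 L1210 lineages, by 0.30 ± 0.44 and 0.33 ± 0.44 (SD) in ln(TPM + 1), so that these neighbours differed by less than the spread. Below them stood Tubb2a in CD8+ T-cells, above Tubb6 in 28 of 34 lineages but by less than the spread (1.36 ± 2.08), and Tubb6 in L1210 cells, above Tubb2a in 23 of 26 lineages (1.23 ± 0.89). Among the alpha-tubulins Tuba1b exceeded Tuba4a, the next, in 34 of 34 CD8+ lineages, and Tuba4a, Tuba1a and Tuba1c followed within the spread. In L1210 cells the sequence was Tuba1b, Tuba1a, Tuba1c and Tuba4a, where Tuba1a and Tuba1c, and Tuba1c and Tuba4a, also differed by less than the SD. Summed over the 10 members, lineage means were 7265 ± 1922 TPM in CD8+ T-cells and 4904 ± 1269 TPM in L1210 cells, with ratios of alpha to beta of 1.92 ± 0.44 and 1.42 ± 0.30.

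**Figure D2:**
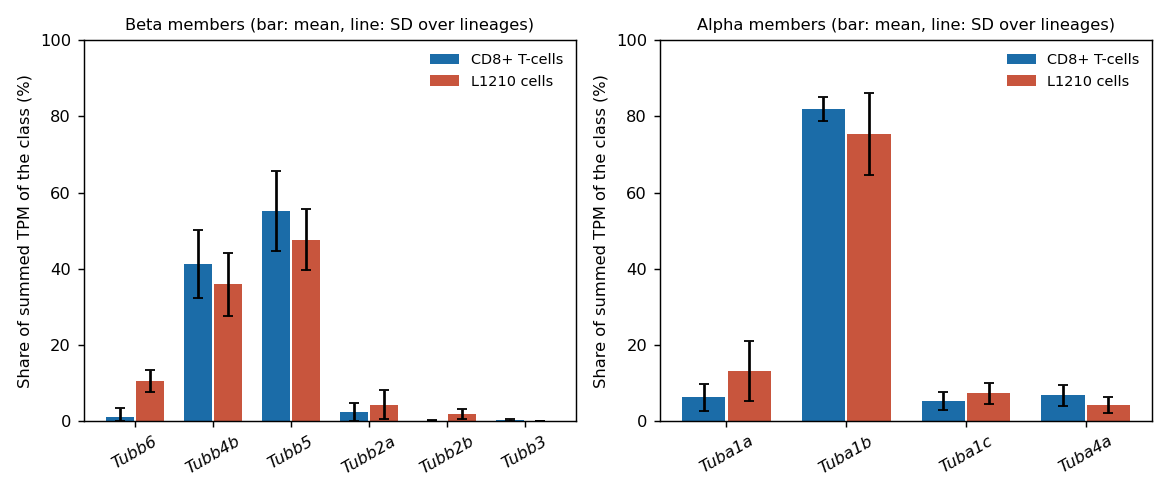
Share of each isotype in the summed TPM of the beta (left) and alpha (right) members, in percent, as the mean (bar) and SD (line, cut at 0) over 34 CD8+ and 26 L1210 lineages. Tubb6 takes 10.4% of the beta total in L1210 cells and 1.08% in CD8+ T-cells.

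Tubb6 varied between CD8+ lineages more than within them. Of the 27 lineages with 2 or more cells, 8 had Tubb6 above 0 TPM in every cell, 8 had it at 0 TPM in every cell and 11 were mixed. The lineage of CD8_91 had 362, 310 and 136 TPM in its 3 cells, that of CD8_83 had 118, 114, 460 and 182 TPM, and that of CD8_25 had 60.7, 115, 117 and 61.9 TPM. These levels lay within the range of L1210 cells, 0 to 656 TPM. Only 4 of these cells, and none of the CD8_25 lineage, exceeded the lower quartile of the L1210 cells, 141 TPM. The first 2 lineages, with 7 of 97 cells, held 58.9% of the summed Tubb6 TPM of the CD8+ T-cells. In contrast, all 4 cells of the lineages of CD8_1, CD8_44, CD8_51, CD8_55, CD8_65 and CD8_71, and all 3 cells of those of CD8_5 and CD8_9, were at 0 TPM. The mixed lineages had means of up to 30.0 TPM, in that of CD8_21 with 50.2, 30.7, 0 and 39.1 TPM. Another was that of CD8_38 with 0, 0, 0 and 37.4 TPM. Some lineages with Tubb6 in every cell were lower, as that of CD8_13 with 1.93 and 1.23 TPM.

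Related CD8+ T-cells differed in Tubb6 by 0.99 ± 0.96 (SD, n = 27 lineages) in ln(TPM + 1) on average, against 2.04 ± 0.70 between these cells and unrelated ones. The value for relatives was thus 51.2% lower, and was lower in 20 of 27 lineages. Mean differences were 0.94 over 43 sister pairs, 0.81 over 72 cousin pairs and 2.03 over 4541 unrelated pairs. Both members were on the same side of 0 TPM in 72.1% of sister pairs, against 76.4% for cousins and 49.3% for unrelated cells. Pearson's r between the 2 cells of a pair was 0.67 for sisters, 0.72 for cousins and -0.03 for unrelated cells, as a description of pairs that share cells. In the L1210 cells, relatives differed in Tubb6 by 0.81 ± 1.02 and unrelated cells by 0.83 ± 0.55 (n = 24 lineages), with r of -0.01 for 38 sister pairs and 0.03 for 62 cousin pairs. With L1210 pairs restricted to within 1000 detected genes the values were 0.37 and 0.52, 29.2% lower for relatives and lower in 17 of 22 lineages. The contrast between the cell types was not tested.

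**Figure D3:**
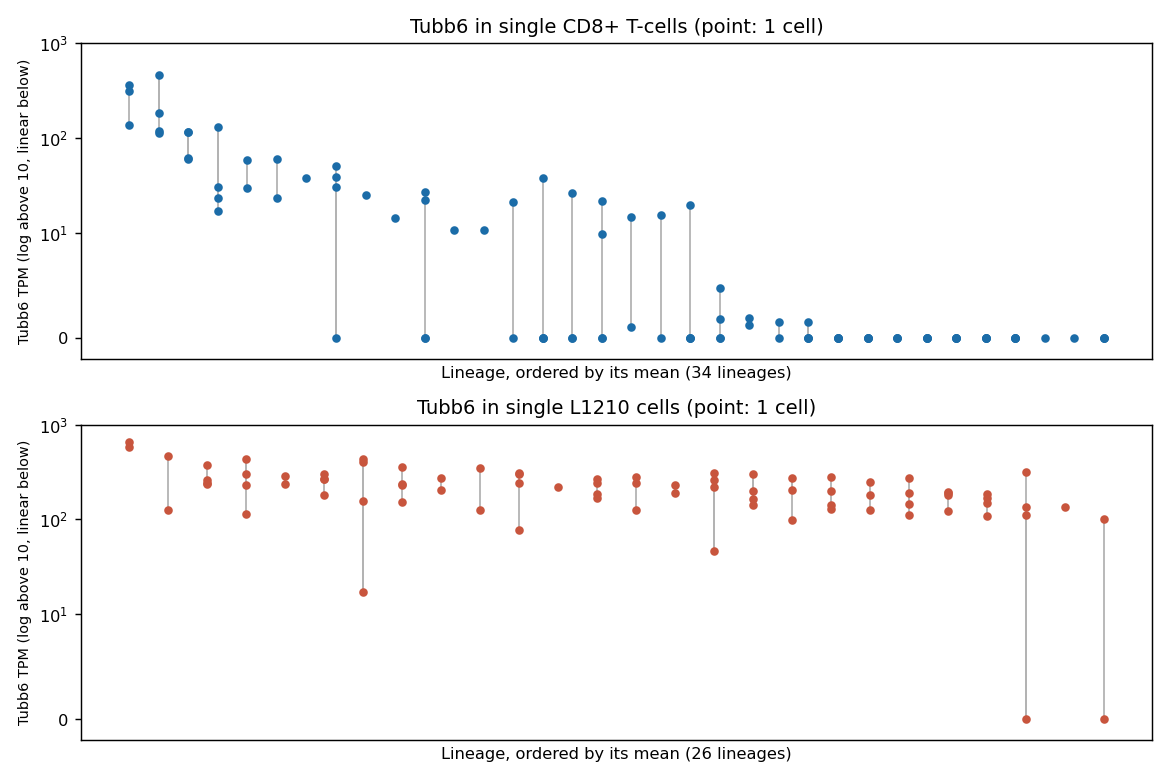
Tubb6 TPM (log axis above 10, linear below) in each CD8+ T-cell (top, 34 lineages) and L1210 cell (bottom, 26 lineages), with the cells of a lineage joined by a line and lineages ordered by their mean. In CD8+ T-cells the lineages run from 270 TPM to 0, and 8 lineages of 2 or more cells have every cell at 0 TPM, while only 2 of 81 L1210 cells are at 0 TPM.

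Other properties of the cells moved with Tubb6. CD8+ T-cells with Tubb6 above 0 TPM had a median of 7597 detected genes and those at 0 TPM a median of 6271, and Spearman's rho between lineage means of Tubb6 and detected genes was 0.48 over 34 lineages. Xist, the transcript of the inactive X chromosome, marks female cells. Among lineages of 2 or more cells, Xist was above 0 TPM in all 30 cells of the 8 without Tubb6. It was above 0 TPM in 14 of the 37 cells of the 11 mixed lineages, in every cell of 3 of them and in no cell of another 3. In the 8 lineages with Tubb6 in every cell, 7 of 23 cells had Xist, and none of those in the CD8_91, CD8_83 and CD8_25 lineages did. Of these 8 lineages, 2 had Xist in every cell and 3 in none. The remaining lineages of both classes were split in Xist. Cells of a lineage share their sex, so that detection of Xist in a single cell does not give its sex. Of the single-cell lineages, those of CD8_80 and CD8_82 had neither transcript. Those of CD8_77, CD8_70 and CD8_69 had both, and those of CD8_78 and CD8_81 had Tubb6 only. With CD8+ pairs restricted to within 1000 detected genes, the Tubb6 difference was 64.2% lower in relatives than in unrelated cells (23 lineages). With unrelated pairs alike in the detection of Xist, cell by cell, it was 46.5% lower, which is not a comparison within sex. After removal of time since division it was 51.1% lower. Without the 2 lineages of highest Tubb6 it was 40.1% lower (25 lineages, an alternative chosen after seeing the data).

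The remaining isotypes were closer among related CD8+ T-cells by smaller amounts. The reduction was 36.8% for Tubb5 (0.29 against 0.47, lower in 23 of 27 lineages), 29.3% for Tuba4a, 24.6% for Tubb4b (0.47 against 0.62, 21 of 27 lineages), 22.6% for Tuba1b, 22.2% for Tuba1c, 19.6% for Tubb2a and 15.5% for Tuba1a. Tubb2b was 4.80% lower and Tubb3 4.78% higher. The number of members closer among relatives was therefore 9 of 10, while 79.8% of all 9995 genes kept in CD8+ T-cells were closer, with a median difference of -8.38% for all genes and -22.4% for the members. After removal of time since division the reduction was 5.81% for Tubb4b and 23.9% for Tubb5. Tubb6 stood at place 11 and Tubb4b at place 771 when the 9995 genes were ordered by this percentage. Tubb6 had been selected on small differences between relatives in these same libraries, so that its place is not an independent result.

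**Figure D4:**
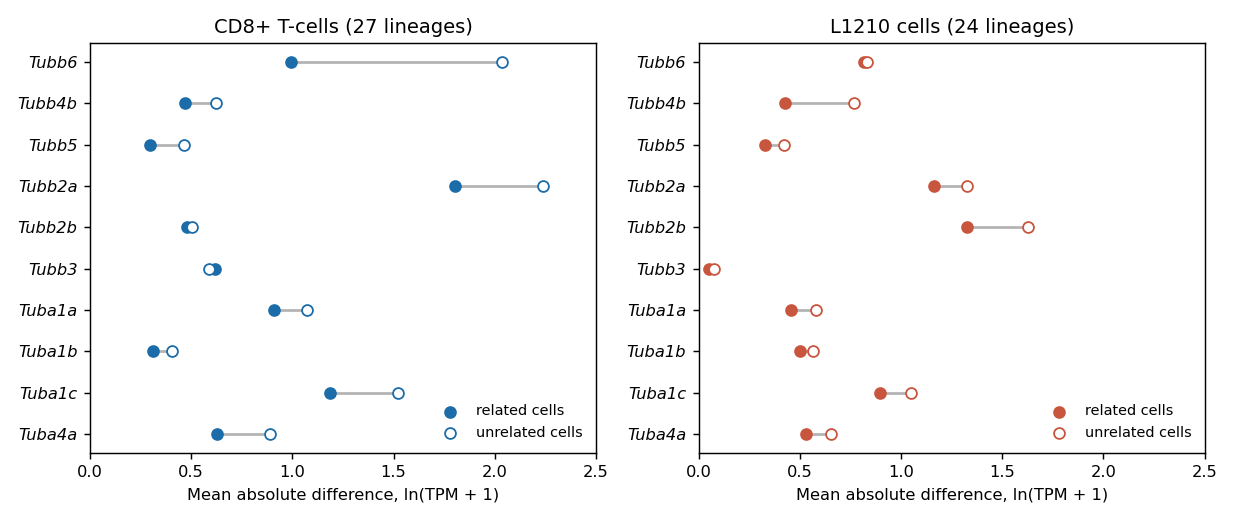
Mean absolute difference in ln(TPM + 1) of each isotype between related cells (filled) and between the same cells and unrelated ones (open), for CD8+ T-cells (left, 27 lineages) and L1210 cells (right, 24 lineages). Tubb6 is the member with the widest gap in CD8+ T-cells, 0.99 against 2.04, and Tubb4b in L1210 cells, 0.43 against 0.77.

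In the L1210 cells lineage was tested as a factor over the 79 cells of the 24 lineages with 2 or more cells, and the result for the members depended on a few cells. With all cells, only Tuba1b of the 8 members other than Tubb4b that entered the test passed (49.1% of variance between lineages, limma F test, adjusted p = 0.00012), while 12.9% of 10534 genes did. This call rested on the lineage of L1210_8, whose cells had 0 and 636 TPM of Tuba1b with 2718 and 4951 detected genes, and the adjusted p was 0.104 without it. Without L1210_15, the cell with the fewest detected genes, in which Tuba1c was listed at 0 TPM, 3 of these 8 members passed and 12.8% of all genes did. These were Tuba1b (49.1% of variance, adjusted p = 3.8e-05), Tubb5 (46.7%, 0.0024, but 0.062 with that cell) and Tuba1c (29.9%, 0.024, but 0.25 with that cell). Tubb6 did not pass with the cell (13.8% of variance, adjusted p = 0.19) or without it (18.7%, 0.11). Tubb4b is described only. Lineages held 12.4% of its variance with all cells and 76.4% without L1210_15, in which it was listed at 0 TPM while the related cells L1210_3, L1210_26 and L1210_37 had 747, 1726 and 1262 TPM. Related L1210 cells differed in it by 0.43 and unrelated cells by 0.77, 44.4% lower for relatives, and 54.1% lower without L1210_15.

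In the CD8+ T-cells Tubb4b, Tubb5 and Tuba1b were higher at later times since division, as a description over the 31 lineages with recorded times, from 0.5 to 9.48 h. Slopes were 0.13 ± 0.03 (SE) in ln(TPM + 1) per hour for Tubb4b, 0.06 ± 0.02 for Tubb5 and 0.06 ± 0.02 for Tuba1b. Tuba1c had a slope of 0.11 ± 0.07, with median lineage levels of 177, 284 and 328 TPM before 3 h, from 3 to 6 h and after 6 h. For Tubb4b the median lineage level was 872 TPM (290 to 1256) before 3 h in 9 lineages, 1029 TPM (545 to 1634) from 3 to 6 h in 13 lineages and 1371 TPM (1037 to 1934) after 6 h in 9 lineages. The corresponding medians were 1132, 1443 and 1487 TPM for Tubb5 and 3438, 4072 and 4425 TPM for Tuba1b. Summed beta-tubulin had medians of 2019, 2733 and 3246 TPM, and summed alpha-tubulin of 4322, 5247 and 5483 TPM. Tubb6 had no such course, with a slope of -0.03 ± 0.12 and medians of 10.8, 7.67 and 9.36 TPM. Tuba4a had a slope of -0.01 ± 0.05 and Tuba1a of -0.05 ± 0.06.

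In the L1210 cells, followed from 0.354 to 12.8 h, no member had a slope that passed the test. Adjusted p-values were 0.91 for Tubb4b (-0.02 ± 0.03 per hour), 0.91 for Tubb5 (-0.02 ± 0.02), 0.86 for Tuba1b (-0.05 ± 0.04) and 0.94 for Tubb6 (-0.01 ± 0.04). Across all genes limma called 0 of 10534, with 584 (5.54%) at an unadjusted p under 0.05, and a permutation test of Spearman's rho did not call any member. Tubb4b was higher early and late than in between, with median lineage levels of 935 TPM (660 to 1125) before 3 h in 8 lineages, 567 TPM (273 to 778) from 3 to 6 h in 7 lineages, 810 TPM (326 to 1032) from 6 to 10 h in 5 lineages and 1100 TPM (125 to 1377) after 10 h in 6 lineages. A quadratic in hours, chosen after seeing the data, gave an unadjusted p of 0.014 for Tubb4b and an adjusted p of 0.91 (limma), where 4.91% of all genes had an unadjusted p under 0.05. Without L1210_15 these were 0.082 and 0.98, and 5.07% of all genes. The ranges of Tubb4b before 3 h and after 10 h overlapped each other, and both overlapped the range from 3 to 6 h. The lowest level after 10 h, 125 TPM, was that of the lineage of L1210_8, whose cells had 2718 and 4951 detected genes. The difference in slope between the cell types was not tested.

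**Figure D5:**
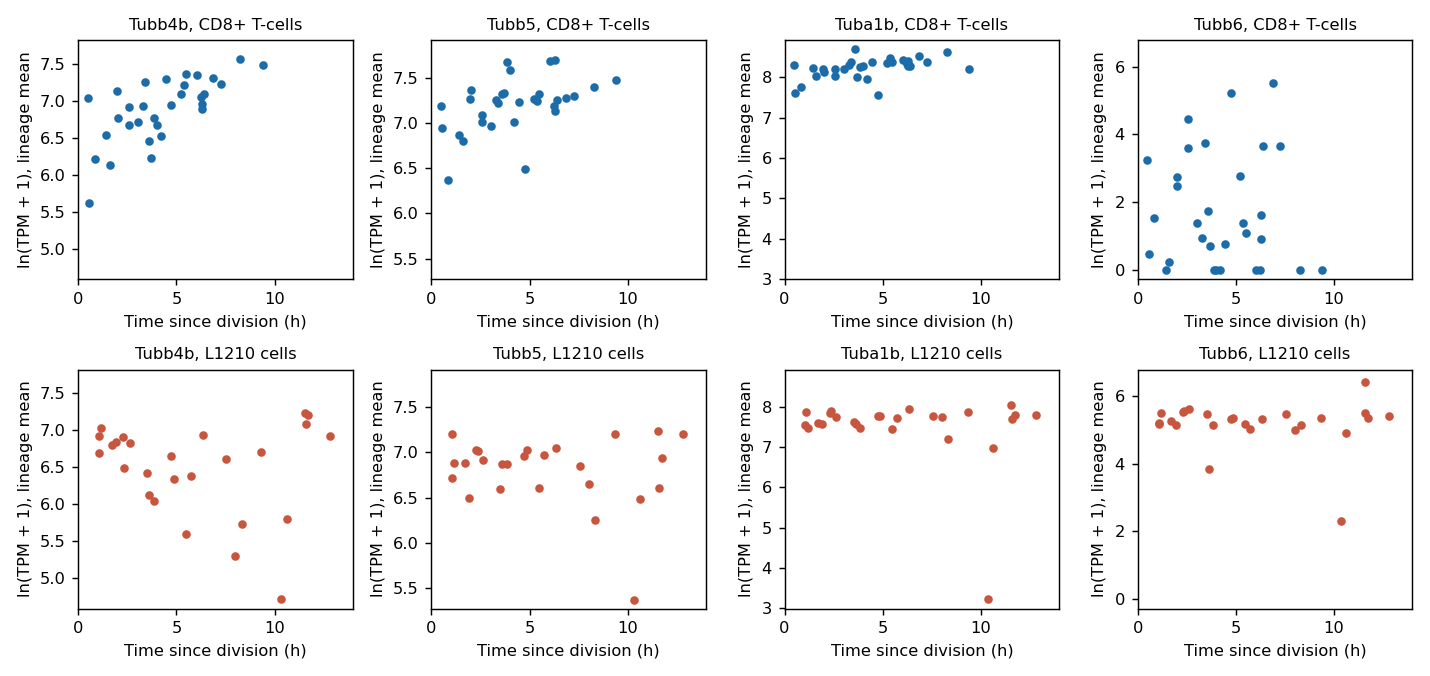
Lineage means of Tubb4b, Tubb5, Tuba1b and Tubb6 in ln(TPM + 1) against time since division in hours, for 31 CD8+ lineages (top) and 26 L1210 lineages (bottom), each point 1 lineage. Tubb4b has a slope of 0.13 per hour in CD8+ T-cells, whereas its L1210 points lie lower between 3 and 6 h than before 3 h in the median, at 567 against 935 TPM.

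The genes most like Tubb4b over the lineage means of L1210 cells were Racgap1 (Spearman's rho 0.85), Kif20a (0.85), Reep4 (0.85), Tpx2 (0.84) and Cdc20 (0.83) over 26 lineages. Racgap1 and Kif20a work in cytokinesis, Tpx2 in spindle assembly, and Cdc20 activates the anaphase-promoting complex. In CD8+ T-cells they were Srsf3 (0.73), Kpna2 (0.71), Cdk1 (0.70), Tuba1b (0.69) and Aurka (0.67) over 34 lineages. Tubb6 had rho of 0.65 with Tubb4b in L1210 cells and of 0.11 in CD8+ T-cells. The genes most like Tubb6 in CD8+ T-cells were Set (0.79), Il2rb, a chain of the IL2 receptor (0.74), 2510002D24Rik (0.74), Lrrc59 (0.72) and Agxt2l2 (0.71), and no other tubulin was among the first 5. The highest member in this order was Tuba1c (0.33, place 1809 of 9994 genes), and Tubb5 had a rho of -0.20. These correlations share libraries and the number of detected genes and are a description.

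The promoter of Tubb4b is shown because Tubb4b had the steepest slope with time since division among the members in CD8+ T-cells. It was searched for CCAAT boxes and the cell cycle homology element (TTTGAA or TTCGAA), which are known from promoters of many cell cycle genes. The 250 bases before the start of transcription on the minus strand (RefSeq, GRCm38.p6, chr2:25224703-25224952) are given 5′ to 3′, with matches to CCAAT and TTTGAA on this strand in capitals:
Tubb4b promoter: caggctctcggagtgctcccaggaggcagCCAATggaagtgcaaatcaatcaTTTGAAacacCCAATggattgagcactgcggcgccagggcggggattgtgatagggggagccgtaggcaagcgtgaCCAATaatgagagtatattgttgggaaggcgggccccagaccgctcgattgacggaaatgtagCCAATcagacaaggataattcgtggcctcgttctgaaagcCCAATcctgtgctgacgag
It holds 5 CCAAT and 1 TTTGAA. Of 32851 promoters of 300 bases, 37.4% held CCAAT, 17.9% TTTGAA and 1.56% TTCGAA, and 89 (0.271%) held 5 or more CCAAT. These shares, and the counts of the members, are for matches on either strand. Among the 8 members with a promoter in the table, Tubb5 had 2 CCAAT, Tuba1a, Tuba1c and Tubb3 had 1 each, and Tubb2a, Tuba1b and Tuba4a had none. No other member had TTTGAA or TTCGAA. Matches are letters in these windows, not sites of binding.

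Beyond the members, genes of the microtubule system were examined as a list of 67 genes, of which 61 were tested, together with 10 other tubulins, of which 6 were tested. In CD8+ T-cells against L1210 cells, 4 microtubule genes were higher in CD8+ T-cells and 26 were higher in L1210 cells, 49.2% against 63.6% of all genes, with a median difference of -0.36 against -0.41. Of all genes, 50.1% were higher in L1210 cells and 13.5% higher in CD8+ T-cells. The tubulin modification genes had 9 of 12 higher in L1210 cells and none higher in CD8+ T-cells. The folding cofactors and chaperonin had 2 higher in CD8+ T-cells and 9 higher in L1210 cells of 19 tested. Microtubule dynamics genes had 2 and 6 of 21, and the gamma-tubulin complex had 0 and 2 of 8. The largest differences towards CD8+ T-cells were those of Stmn1, which destabilises microtubules (1.61 ± 0.14, adjusted p = 1.0e-16, cell medians of 556 and 146 TPM), epsilon-tubulin Tube1 (1.18 ± 0.26, 6.3e-05) and Pfdn1, a prefoldin subunit (0.57 ± 0.20, 0.011). Towards L1210 cells they were those of Arl2, a regulator of tubulin folding (-1.84 ± 0.27, 2.1e-08), Ttll12 (-1.53 ± 0.21, 4.5e-09) and Spast, which severs microtubules (-1.31 ± 0.19, 9.3e-09). Within L1210 lineages 8 of the 61 passed, 13.1% against 12.9% of all genes, led by Tpx2 (62.7% of variance, adjusted p = 2.2e-06), Tbca, a tubulin folding cofactor (46.6%, 0.00043), and Kif2c, a depolymerising kinesin (37.97%, 0.0050), and with time since division none of them did.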

How the data were processed

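Single-cell libraries of CD8+ T-cells and L1210 cells were prepared by Smart-Seq2. RSEM 1.2.3 was run by the authors on UCSC genes (mm10), and the deposited table gives TPM for 194 libraries. The submitters' processing notes also list bcl2fastq, TopHat2 and GenomeStudio. Of the 23420 names, 27 had been turned into dates, and 2 that were duplicated were left out. TPM keep no depth, which limits the precision of low values. Groups, lineages and times came from the labels. Doublets (4 and 2) and other cells under 1000 detected genes (5 and 5) were left out.

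Values were transformed to ln(TPM + 1). Genes above 1 on this scale in over 10% of cells of either type being compared were tested. Lineage means were compared between cell types and with time since division, and single cells between lineages, with limma (trend and robust, 2-sided, Benjamini-Hochberg over all genes, threshold 0.05). Each fit was tested on simulated data. Shared sequence was counted as words of 30 bases in GENCODE transcripts of GRCm38. The genes named are the members, the 5 most like Tubb6 in CD8+ T-cells and most like Tubb4b in each type, and the 3 of the microtubule lists with the largest called difference in each direction. Members and lists were chosen with earlier results of these data known. Alternatives were other pseudocounts, gene and cell filters, scaling without Rn45s, a covariate, weights, other tests and leaving out lineages. A marker gene and a sequence are not reported here.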

Additional observations from a re-analysis of the deposited data

How the results depend on the processing

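No paired analysis was possible because replicate numbers only name cells, and the lineages of the cell types are separate. Counts of members here include Tubb3 and Tubb4b, so that those within L1210 lineages are a description. Without Tubb4b, 1 of 8 members was called within L1210 lineages with all cells, and 3 of 8 without L1210_15. In CD8+ T-cells against L1210 cells the number of members called and that of all genes stayed within 1.5 times in every alternative run. The direction of the 10 differences was kept throughout. Within L1210 lineages the number of members called was 1, but 4 with a pseudocount of 10 TPM, 2 with no gene filter, 2 with the 50% filter, 6 in cells of 4000 or more detected genes, 4 without L1210_15, 2 with detected genes as a covariate, 3 by the Mann-Whitney U-test on pairs (which treats pairs as independent) and 2 with residuals on hours without L1210_15, and 0 to 5 when each lineage was left out. All genes called came to 1359 (12.9%), and to 1344 (12.8%) without L1210_15. They came to 678, 494, 756, 686 and 545 with 4000 detected genes, the covariate, residuals on hours, residuals without L1210_15 and the Mann-Whitney U-test, and 498 to 1680 over lineages left out. In the other settings they stayed within 1.5 times. Tuba1b was no longer called by the Mann-Whitney U-test on pairs (adjusted p = 0.23). With time since division in L1210 cells all genes called were 0, but 1 with the covariate and 0 to 2 over lineages left out. Slopes turned in sign in cells of 4000 or more detected genes for Tubb6 (0.0105) and Tubb5 (0.000915), by Spearman's rho for Tubb5 (0.00103) and Tuba1b (0.113), and over lineages left out for Tuba1b (-0.0653 to 0.00229), Tubb5 (-0.0283 to 0.00132) and Tubb6 (-0.0382 to 0.0218). The cause was not tested. Likeness, slopes in CD8+ T-cells and isotype shares moved by less than their spread (SD over lineages, or SE for slopes) in every alternative run. For likeness this spread is wide, as for Tubb4b (-0.15 ± 0.26 in ln(TPM + 1)). After removal of time since division the reduction for Tubb4b went from 24.6% to 5.81%, and Tubb3 turned from 4.78% higher in relatives to 12.3% lower.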
